A study of Mus musculus with 46 samples.

Results

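The comparison set the cerebellum beside the liver of p150-positive mice at postnatal day 23, in 14 libraries of the 46 in the series: 7 cerebella and 7 livers, taken by the tissue and genotype in the labels. These came from 8 C57BL/6 animals, and 6 of them (animals 4, 6, 10, 12, 13 and 15) gave both tissues. Every animal carried the P195A allele of Adar, the gene of the RNA editing enzyme ADAR1, and in this group (P195A_p150pos in the labels) the other allele still made p150, the interferon-inducible isoform of ADAR1. The mice are therefore not wild type. The P195A_p150neg animals, of the same strain and age, in which P195A was paired with an allele that makes no p150, enter only where the tissue difference was compared between genotypes. The cerebellum library of animal 7 (column 20) was left out because it did not pass the tissue check of earlier work on these data, and its effect when put back is given with the alternatives. Whole organs were sequenced, so fewer cells of a type and less RNA per cell cannot be told apart.

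Interferons are secreted alarm proteins. Type I interferon acts through IFNAR1 and IFNAR2, interferon gamma through IFNGR1 and IFNGR2, and both reach the nucleus through JAK kinases, STAT proteins and interferon regulatory factors (IRF), which switch on the interferon-stimulated genes. Many of these genes are also expressed at a resting level without infection, among them sensors of double-stranded RNA such as MDA5 and RIG-I and the class I molecules that display peptides to T cells. ADAR1 keeps the cell's own double-stranded RNA from being read by these sensors.

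The tissues showed their own marker genes. The summed level of 16 hepatocyte genes ran from 127162 to 182580 CPM (the usual depth-scaled count of a gene, on library sizes adjusted by TMM, edgeR's composition factor) in liver and from 16.3 to 51.2 CPM in cerebellum. In cerebellum, 9 of 9 tested granule cell markers, 11 of 11 Purkinje cell markers and 11 of 11 oligodendrocyte markers were higher. Total counts ran from 1682418 to 4304331 per liver and from 2896170 to 6237043 per cerebellum. The liver of animal 13 stood apart: its log2 levels correlated at 0.906 with the median of the other livers, against 0.957 to 0.974 for the rest. The liver of animal 12 stood apart in interferon-inducible genes, as described below, and a call of the tissue difference that changed without either animal is named beside the gene.

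Of 12538 genes tested, 4900 were higher in cerebellum (39.1%) and 4269 higher in liver (34%) at a Benjamini-Hochberg adjusted p under 0.05 in edgeR's quasi-likelihood test, 73.1% in all. With a log2 fold change of at least 1 as well, 57.2% were called, 31.7% higher in cerebellum and 25.6% higher in liver. Fold changes are cerebellum over liver, on a log2 scale, with the standard error (SE), and the median over all genes was 0.11. The scale depends on the normalization: with library totals in place of TMM, the median of all genes became 1.10 and 62.5% of genes were called higher in cerebellum against 18.2% higher in liver. With a set of housekeeping genes as the scale the median was 0.45. A call of the tissue difference that was lost or gained under library totals is named beside the gene.

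The sequences in front of the start sites of 6 members are shown first because they hold, or lack, the element that STAT and IRF factors bind. Each is the 250 bases before the start of a RefSeq transcript (GRCm38.p6), 5′ to 3′ on the gene's strand. Capitals mark GAAA, any 2 bases and GAAA, on either strand, the core of the interferon-stimulated response element, and TTCNNNGAA, the element known as GAS, from genes that respond to interferon gamma, where they overlap or stand alone.

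Isg15: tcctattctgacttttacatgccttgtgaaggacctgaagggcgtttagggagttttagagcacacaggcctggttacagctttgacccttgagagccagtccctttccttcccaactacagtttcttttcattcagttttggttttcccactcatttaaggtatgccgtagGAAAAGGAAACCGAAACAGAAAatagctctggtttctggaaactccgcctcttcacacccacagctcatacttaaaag
Bst2: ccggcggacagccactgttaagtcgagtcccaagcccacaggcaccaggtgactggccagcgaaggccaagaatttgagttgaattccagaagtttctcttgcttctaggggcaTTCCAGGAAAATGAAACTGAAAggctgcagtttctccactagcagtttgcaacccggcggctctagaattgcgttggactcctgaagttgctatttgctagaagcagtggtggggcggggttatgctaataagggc
Irgm1: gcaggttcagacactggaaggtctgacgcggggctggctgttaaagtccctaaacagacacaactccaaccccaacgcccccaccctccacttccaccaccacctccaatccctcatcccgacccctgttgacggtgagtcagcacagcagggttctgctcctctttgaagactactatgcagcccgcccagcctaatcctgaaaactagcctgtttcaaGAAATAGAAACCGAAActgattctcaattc
B2m: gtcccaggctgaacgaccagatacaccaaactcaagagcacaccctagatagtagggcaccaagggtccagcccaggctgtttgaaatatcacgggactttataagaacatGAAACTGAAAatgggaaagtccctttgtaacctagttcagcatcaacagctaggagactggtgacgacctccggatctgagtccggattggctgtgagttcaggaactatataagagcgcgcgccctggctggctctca
Rsad2: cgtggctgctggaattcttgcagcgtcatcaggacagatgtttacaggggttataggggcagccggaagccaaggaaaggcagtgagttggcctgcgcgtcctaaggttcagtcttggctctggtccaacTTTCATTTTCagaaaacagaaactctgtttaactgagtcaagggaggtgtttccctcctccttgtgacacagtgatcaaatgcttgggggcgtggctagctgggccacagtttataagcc
Cmpk2: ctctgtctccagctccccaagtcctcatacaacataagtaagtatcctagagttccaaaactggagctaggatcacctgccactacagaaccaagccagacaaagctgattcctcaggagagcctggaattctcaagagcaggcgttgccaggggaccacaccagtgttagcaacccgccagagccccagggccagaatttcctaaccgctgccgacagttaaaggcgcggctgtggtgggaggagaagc

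These windows are chr4:156200819-156201068 (minus strand) for Isg15, chr8:71537473-71537722 (minus strand) for Bst2, chr11:48871421-48871670 (minus strand) for Irgm1, chr2:122147437-122147686 (plus strand) for B2m, chr12:26456453-26456702 (minus strand) for Rsad2 and chr12:26468965-26469214 (plus strand) for Cmpk2. Rsad2 and Cmpk2 are neighbours on chromosome 12 that are read in opposite directions, and were chosen after their values were seen. The response element core stood in 936 of 27025 genes with a promoter of this length (3.46%). It stood in 20 of 53 interferon-stimulated genes with a promoter, in 11 of 12 genes of interferon-inducible GTPases (GBP and IRG), in 3 of 17 class I chain genes, in 0 of 13 genes of peptide loading and in 0 of 12 genes of double-stranded RNA binding and editing. The GAS element stood in 8.13% of all genes and in 7 of 12 GTPase genes. A match is a description of the letters, and its absence from this window says nothing about the factor.

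Transcripts of the interferons themselves were all but undetected. Of 15 interferon genes, 14 had 0 counts in every liver and 15 in every cerebellum, and Ifng had 1 count in 1 liver, so none could be tested.

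The receptor chains were split between the tissues. Of 9 receptor and JAK genes 8 were tested, and 4 were higher in liver and 1 in cerebellum (2 and 4 under library totals). Over all genes tested the shares were 34% and 39.1%. Ifnar2, a chain of the type I receptor, had 58.9, 94.8 and 111 CPM in liver (lowest, median and highest of 7) and 11.9, 16.6 and 19.7 CPM in cerebellum. The groups did not overlap, and the difference was -2.51 (SE 0.17, adjusted p = 1.53e-10).

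Its partner Ifnar1 ran from 15.8 to 72.4 CPM in liver and from 31.6 to 47.1 CPM in cerebellum. These ranges overlapped, and the difference of -0.34 (SE 0.25) was not called (adjusted p = 0.232), while under library totals it was 0.65 and called higher in cerebellum, and without animal 13 it was -0.47 and called higher in liver (adjusted p = 0.0406). The ratio of Ifnar2 to Ifnar1 within a library does not depend on the scale. Per kilobase of exon it was 2.44, 3.38 and 6.56 in liver and 0.504, 0.818 and 0.994 in cerebellum, so Ifnar2 was above Ifnar1 in all 7 livers and below it in all 7 cerebella.

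For interferon gamma, Ifngr1 was higher in liver at 70.6 to 110 CPM against 25.3 to 36.7 CPM (-1.41, SE 0.15). Ifngr2, the signalling chain, was the 1 receptor gene higher in cerebellum, with 54.3, 78.2 and 95.5 CPM there and 32.2, 45 and 57.7 CPM in liver (0.77, SE 0.16, adjusted p = 0.000319). The ranges of Ifngr2 overlapped at their edges, but it was higher in the cerebellum of 6 of 6 animals. Ifnlr1, the receptor chain for interferon lambda, had 4 counts over all livers and 4 over all cerebella and was not tested.

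All 11 tested STAT and IRF genes of 12 were higher in liver, beside 34% of all genes tested, with a median difference of -2.48 (10 under library totals). Of the 11, 7 passed the filter on low counts in every library of both tissues. Those 7 were all higher in liver, beside 42.5% of all genes that passed in this way.

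Irf7, which amplifies type I interferon, was at 37.6, 74.1 and 196 CPM in liver and at 1.39, 4.21 and 8.78 CPM in cerebellum (-4.31, SE 0.42). Irf1, a factor switched on by interferon gamma, differed by -3.74 (SE 0.35), Irf9 by -2.61 (SE 0.33), Irf3 by -1.82 (SE 0.19) and Stat2 by -1.14 (SE 0.21). None of these 4 overlapped between tissues. Stat2 was the exception to scaling, with -0.13 and no call (adjusted p = 0.596) under library totals.

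Among 14 inhibitors of the pathway 12 were tested and 5 were called in each direction. Over all genes tested, 39.1% were higher in cerebellum and 34% in liver. Under library totals 9 of the inhibitors were called higher in cerebellum and 2 in liver. Usp18, which removes ISG15 from proteins and blocks the type I receptor, had 37.8, 60.6 and 133 CPM in liver and 1.07, 3.51 and 8.35 CPM in cerebellum (-4.36, SE 0.41). The phosphatases of the pathway were divided: Ptpn2 was higher in cerebellum by 0.91 (adjusted p = 0.000245), and Ptpn6 was higher in liver (-2.93, adjusted p = 1.7e-08). Pias1, which inhibits STAT proteins, was higher in cerebellum by 0.91 (adjusted p = 5.92e-05).

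Of 65 interferon-stimulated genes 51 were tested, 43 were higher in liver and 0 in cerebellum, with a median difference of -2.76; 37 were called higher in liver and 5 in cerebellum under library totals. Genes that pass the filter through the tissue where they are high had to differ, so the count was also taken over the 24 members that passed in all 14 libraries. Of those, 20 were higher in liver and 0 in cerebellum, beside 42.5% and 24.9% of all 6814 genes that passed in this way. In 38 of the 51 the lowest liver stood above the highest cerebellum, against 22% of all genes tested. At this list the counts without animal 12 were 43 higher in liver and 2 higher in cerebellum, and without animal 13 they were 45 and 1.

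Isg15, a ubiquitin-like modifier, had 22.5, 32.5 and 140 CPM in liver and 1.2, 2.81 and 7.27 CPM in cerebellum. The ranges did not overlap, and the difference was -3.81 (SE 0.46, adjusted p = 4.33e-07). Ifitm3, a membrane protein that blocks virus entry, had 1469, 1824 and 2476 CPM in liver against 12.9, 36 and 57.9 CPM in cerebellum (-5.75, SE 0.30).

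Bst2, or tetherin, which holds budding virus at the cell surface, ran from 123 to 625 CPM in liver and from 2.72 to 12.5 CPM in cerebellum (-5.77, SE 0.39). Lgals9, a galectin, ran from 925 to 2136 CPM and from 6.2 to 27.1 CPM (-6.75, SE 0.36). Apol9b had 2696 counts over the livers and 0 over the cerebella, and against a floor of 3 counts over the cerebella it was at least 2333-fold higher in liver. Bst2, Lgals9 and Apol9b thus left a wide gap between the tissues.

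Other members differed less. Ly6e, a surface protein, was at 101 to 141 CPM in cerebellum and 386 to 1427 CPM in liver (-2.88, SE 0.25). Ifit3, which binds foreign RNA ends together with its family, had 20.6, 31.3 and 75.5 CPM in liver and 4.67, 15.8 and 32.1 CPM in cerebellum; the ranges overlapped, the difference was -1.35 (SE 0.35, adjusted p = 0.00176), and under library totals it was -0.37 and not called. Reads of Ifit3 and its near-identical copy Ifit3b may be shared.

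Rsad2, the antiviral enzyme viperin, and its neighbour Cmpk2, a mitochondrial nucleotide kinase, parted. Rsad2 had 55.6, 66.8 and 112 CPM in liver and 14.1, 21 and 47.1 CPM in cerebellum, with no overlap (-1.46, SE 0.26; -0.46 and not called under library totals). Cmpk2 had 1.82, 11.1 and 51.2 CPM in liver and 18.7, 28.4 and 48.1 CPM in cerebellum. Its difference of 0.86 (SE 0.46) was not called (adjusted p = 0.0996), but it was called with the animal as a block (1.18, adjusted p = 0.0349), under library totals (1.84) and without animal 12 (1.37, adjusted p = 0.00615), whose liver held the highest level.

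Within a library, the ratio of Rsad2 to Cmpk2 per kilobase was 2.1, 5 and 30.3 in liver and 0.583, 0.735 and 1.2 in cerebellum. The ranges did not overlap. The ratio was lower in the cerebellum of 6 of 6 animals (two-sided exact permutation test over libraries, adjusted p = 0.000777 over 8 ratios). All 8 ratios were chosen after seeing the data, so their p-values, here and below, are descriptive and not independent support. The test also treats the libraries as independent, although 6 animals gave both tissues. Rsad2 holds the response element core in the window shown above, and Cmpk2 does not. Whether the element bears on this ratio was not tested.

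Ly6a, the stem cell antigen Sca-1, had 12.7, 26.3 and 96.9 CPM in liver and 44.5, 69.2 and 81.2 CPM in cerebellum. The liver of animal 12 was above all cerebella and the other 6 livers ran lower. The difference of 0.76 (SE 0.34) missed the threshold (adjusted p = 0.0523) and was called with the animal as a block (1.07, adjusted p = 0.00848), under library totals (1.74) and without animal 12 (1.14, adjusted p = 0.0024); leaving out 1 library gave a call in 4 of 14 fits.

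**Figure D1:**
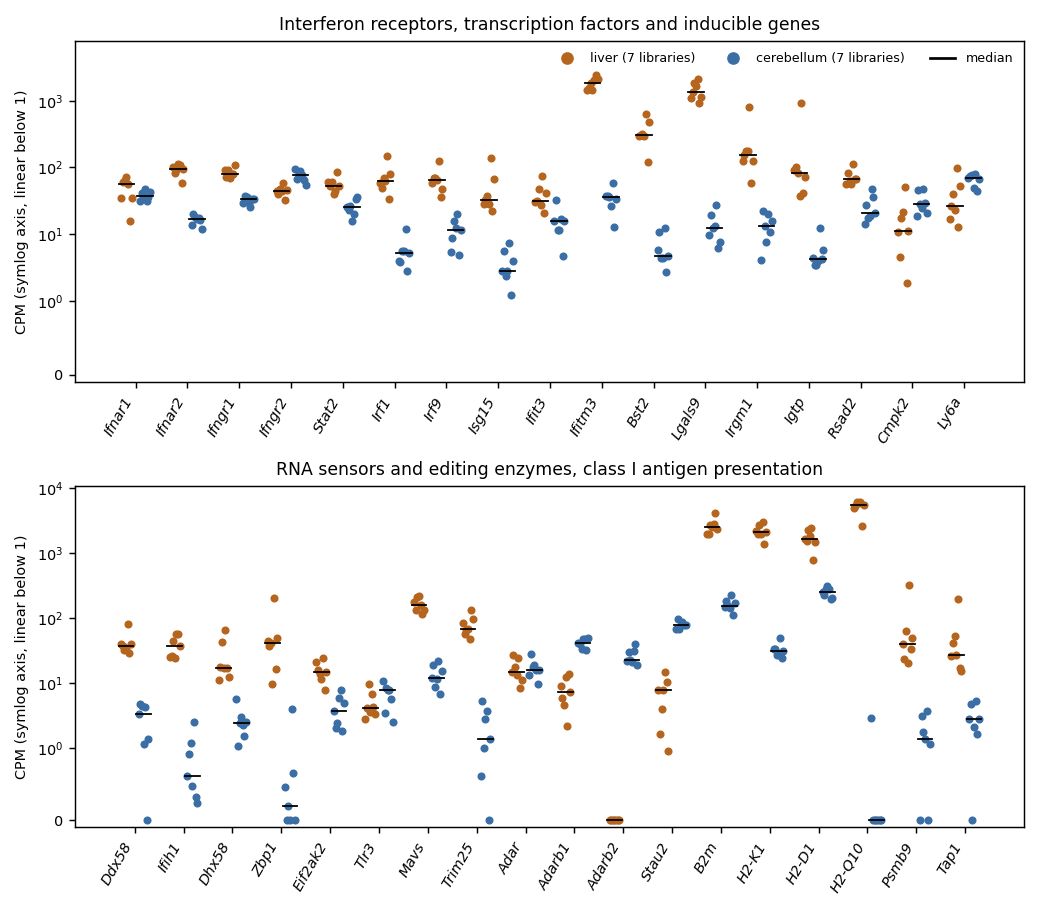
Level of 35 genes in each library, in CPM on a symlog axis that is linear below 1, with liver in brown and cerebellum in blue, 1 point per library and a bar at the median of 7. Most interferon-stimulated and class I genes lie lower in cerebellum, Ifngr2, Adarb1, Adarb2 and Stau2 lie higher there, and Adar lies at the same height in both.

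The GBP and IRG genes encode GTPases that attack vacuoles of intracellular microbes and are known as targets of interferon gamma. Of 20 members 12 were tested and 12 were higher in liver, beside 34% of all genes tested, with a median of -4.53 (10 under library totals). In every liver 10 passed the filter and in every cerebellum 3, so most entered the test through the tissue where they were high. The 3 that passed in every library of both tissues were higher in liver, beside 42.5% of all genes that passed in this way. Members of these families share reads. Iigp1 had 399, 456 and 5713 CPM in liver and 0.199, 1.69 and 12.8 CPM in cerebellum, with no overlap (-8.41, SE 0.94, and -7.71 without animal 12). Irgm1 had 57.7, 154 and 799 CPM and 4.14, 13.1 and 22.3 CPM (-4.13, SE 0.52, and -3.48 without animal 12), and Igtp had 37.9, 82.8 and 936 CPM and 3.38, 4.24 and 12.5 CPM (-5.21, SE 0.73, and -4.08 without animal 12).

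The highest liver of all 12 tested GTPase genes was that of animal 12. Their mean log2(CPM + 1) was 7.85 there and 4.97 to 5.50 in the other livers. The cerebellum of animal 12 was also the highest of its tissue, at 2.83 against 1.36 to 1.98, and it held the highest value for 7 of the 12. Even this cerebellum was below the lowest liver.

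The same animal led in other lists. It held the highest liver value for 31 of 51 interferon-stimulated genes, 6 of 7 RNA sensors and 12 of 15 genes of peptide loading, and the highest cerebellar value for 19 of 51, 3 of 7 and 7 of 15. Over the 6 animals with both tissues, the mean level of the GTPase genes in liver and in cerebellum gave a Pearson r of 0.90 (exact permutation p = 0.172) and a Spearman rho of 0.49 (p = 0.356), and r fell to -0.16 without animals 10 and 12. For the interferon-stimulated genes r was 0.78 (p = 0.0778) and rho 0.77 (p = 0.103), with r at 0.02 without animals 12 and 15. Over the 3 lists tried, with peptide loading, the adjusted p for r ran from 0.125 to 0.172, and in each list the relation rests on the animals left out. Nothing in the labels sets animal 12 apart.

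**Figure D2:**
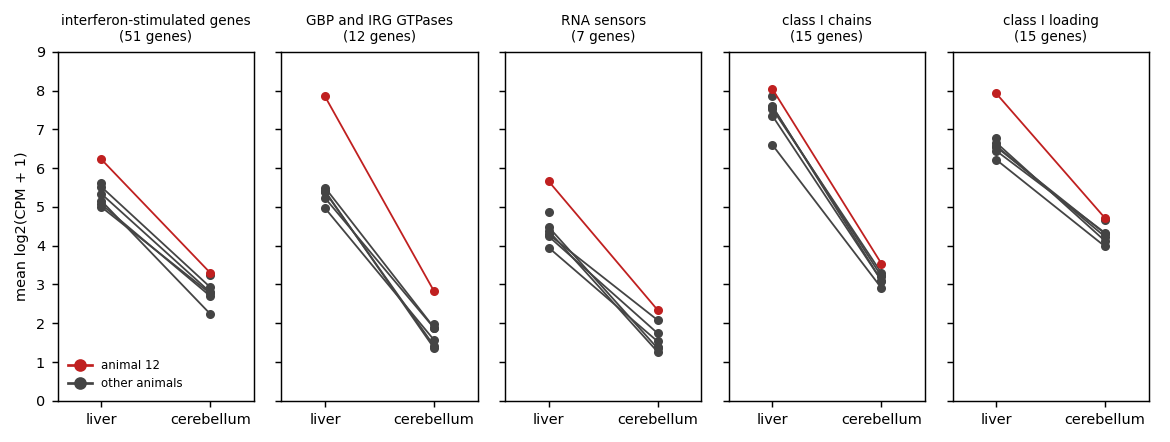
Mean log2(CPM + 1) of the tested members of 5 lists in the liver and cerebellum of each animal, with a line joining the tissues of 1 animal and animal 12 in red. Every line falls from liver to cerebellum, and animal 12 lies at 7.85 in liver and 2.83 in cerebellum for the GBP and IRG genes.

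The OAS enzymes make short chains of adenylate when they bind double-stranded RNA. Of 13 members 4 were tested and all 4 were higher in liver (2 under library totals), beside 34% of all genes tested. None of the 4 passed the filter in every library of both tissues. Oasl1 had 11.9, 22.5 and 62.1 CPM in liver and 12 counts over all cerebella (-6.19, SE 0.67). Oas2 was at 0.726 to 14.6 CPM in liver and 1.74 to 4.01 CPM in cerebellum; its call (-1.21, adjusted p = 0.0371) was lost under library totals (-0.20, adjusted p = 0.719), with the animal as a block (adjusted p = 0.245), without animal 13 (adjusted p = 0.168) and in 9 of the 14 fits that left out 1 library (adjusted p up to 0.165). Reads of the Oas1 copies cannot be told apart with certainty.

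Most tested RNA sensors were lower in cerebellum. Of 13 sensor genes 7 were tested, 6 were higher in liver and 0 in cerebellum, with a median of -3.78 (6 and 1 under library totals). Over all genes tested, 34% were higher in liver and 39.1% in cerebellum. None of the 7 passed the filter in every library of both tissues. In every liver 6 passed it and in every cerebellum 1, so most entered the test through the tissue where they were high.

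Ifih1, which encodes MDA5, the sensor of long double-stranded RNA, had 24.7, 37.1 and 57.7 CPM in liver and 0.233, 0.613 and 2.51 CPM in cerebellum. The highest cerebellum, that of animal 12, was far below the lowest liver, and the difference was -5.49 (SE 0.41, adjusted p = 5.18e-10) from 579 counts in liver and 31 in cerebellum. Ddx58, which encodes RIG-I, had 29.1, 36.7 and 81.7 CPM and 0, 3.37 and 4.74 CPM (-3.94, SE 0.50). Dhx58, which encodes their relative LGP2, differed by -3.29 (SE 0.45).

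Zbp1, the sensor of left-handed Z-form nucleic acid that starts necroptosis and shares its binding domain with p150, had 9.71, 41.7 and 201 CPM in liver and 0, 0.199 and 4.01 CPM in cerebellum. Its 1001 liver counts stood against 26 cerebellar counts, and 3 cerebella had none. The difference was -6.33 (SE 0.80, adjusted p = 7.43e-07), and -6.79 without animal 12, which held the highest value of each tissue. The downstream genes Ripk3 and Mlkl were too low to test, with 74 and 201 counts in liver and 11 and 24 in cerebellum.

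Eif2ak2, which encodes PKR, the kinase that halts translation on double-stranded RNA, differed less than the other called sensors, with 7.89, 14.9 and 24 CPM in liver and 1.85, 3.68 and 7.77 CPM in cerebellum (-1.98, SE 0.36, adjusted p = 6.57e-05). Zc3hav1, the CpG-binding antiviral protein ZAP, differed by -3.78 (SE 0.41). Tlr3, the endosomal sensor, was the 1 tested sensor not called: it had 2.81, 4.17 and 9.85 CPM in liver and 2.56, 7.73 and 10.6 CPM in cerebellum, and the tissues overlapped through most of their range (0.41, SE 0.38, adjusted p = 0.335). Under library totals Tlr3 was called higher in cerebellum (1.39, adjusted p = 0.0024). Tlr7 had 31 counts in liver and 103 in cerebellum and was not tested.

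Downstream of the sensors the 15 tested signalling genes were split, 8 higher in liver and 3 in cerebellum (7 and 7 under library totals). Of all genes tested, 34% and 39.1% were higher in those tissues. Of the 7 signalling genes that passed the filter in every library of both tissues, 3 were higher in liver and 1 in cerebellum. Over all genes that passed in this way the shares were 42.5% and 24.9%, so the liver count of these 7 is near that of all genes. Mavs, the mitochondrial adaptor that MDA5 and RIG-I share, had 115, 158 and 218 CPM in liver and 6.74, 12 and 21.6 CPM in cerebellum, with no overlap (-3.60, SE 0.25, adjusted p = 1.95e-10). Trim25, the ubiquitin ligase that activates RIG-I, had 47.9 to 133 CPM and 0 to 5.29 CPM (-5.28, SE 0.51). Per kilobase, Ifih1 was at 0.0472, 0.0878 and 0.206 of Mavs in liver and at 0.00938, 0.0229 and 0.0598 in cerebellum, so the gap was wider for the sensor than for its adaptor (exact permutation test, adjusted p = 0.00291).

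Some signalling genes were higher in cerebellum. Zcchc3, a co-sensor of nucleic acid, had 5.29, 10.5 and 14 CPM in cerebellum and 0.312, 1.45 and 5.21 CPM in liver (2.34, SE 0.46, adjusted p = 0.000149), with no overlap. Tank (0.98, SE 0.19) and Traf3 (1.03, SE 0.34), which tie adaptors to TBK1, were also called, with overlapping ranges. Tbk1 itself differed by 0.28 and was not called (adjusted p = 0.333), but it was called without animal 12 (0.59, adjusted p = 0.031) and under library totals (1.28).

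The enzymes that edit RNA took another course. Adar had 8.5, 14.7 and 27.1 CPM in liver and 9.78, 16.1 and 28.5 CPM in cerebellum, almost the same range, and it was higher in the cerebellum of 3 of 6 animals. The difference was 0.03 (SE 0.28, adjusted p = 0.933), and 1.00 and called under library totals, where the median of all genes is 1.10. These counts cover all isoforms, so p150 and the constitutive p110 cannot be told apart.

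Adarb1, which encodes ADAR2, the editor of neuronal receptor transcripts, had 31.8, 41.7 and 49.4 CPM in cerebellum and 2.18, 7.22 and 14 CPM in liver (2.44, SE 0.30, adjusted p = 4.32e-07). Per kilobase Adarb1 was at 1.01, 2.15 and 2.34 of Adar in cerebellum and at 0.0704, 0.447 and 1.17 in liver. The balance was higher in cerebellum in 6 of 6 animals (exact permutation test, adjusted p = 0.00133), with 1 liver inside the cerebellar range. Adarb2, the brain member without known editing activity, had 18.9 to 40 CPM in cerebellum and 0 counts in liver, at least 140-fold higher.

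Of 14 tested genes of double-stranded RNA binding and editing, 6 were higher in cerebellum and 2 in liver, with a median of 0.61 (12 and 0 under library totals). The cerebellar count is near the 39.1% of all genes tested that were higher there, while 34% were higher in liver. All 14 passed the filter in every cerebellum but 8 in every library of both tissues, and of those 8, 1 was higher in cerebellum and 2 in liver, with a median of -0.06. Stau2, which carries RNA into dendrites, had 67, 78.4 and 96.7 CPM in cerebellum and 0.963, 7.81 and 14.9 CPM in liver, with no overlap (3.52, SE 0.36). Dicer1 was lower in cerebellum (-0.90, SE 0.24, adjusted p = 0.00273), but 0.11 under library totals.

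**Figure D3:**
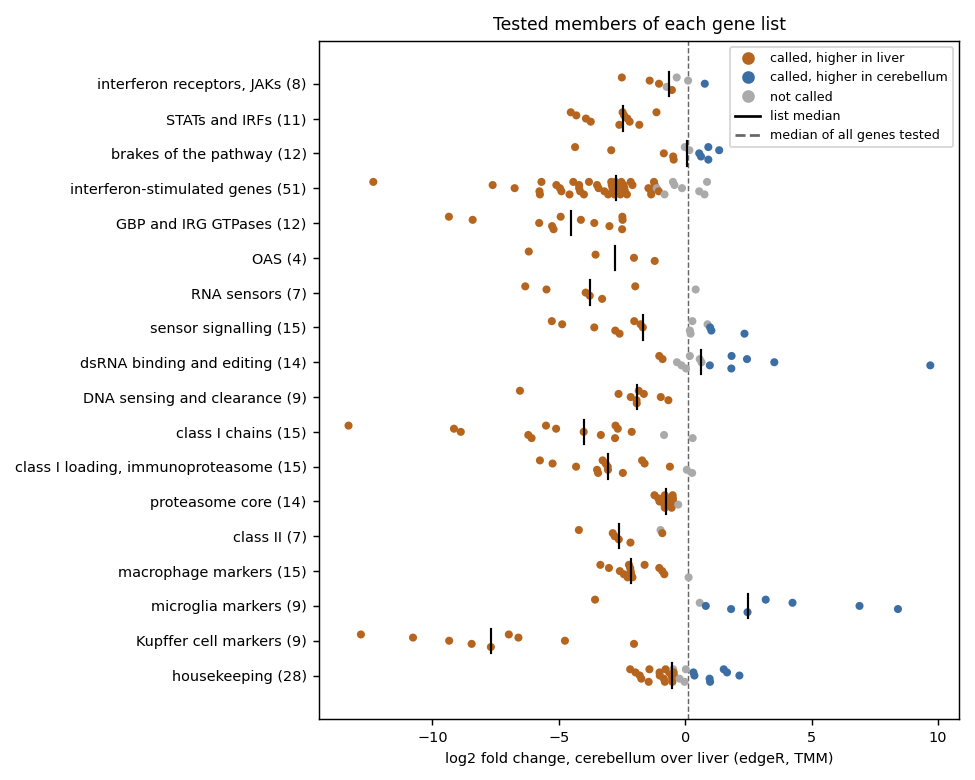
Log2 fold change of cerebellum over liver for each tested member of 18 lists, 1 point per gene, coloured by call, with a bar at the list's median and a dashed line at the median of all genes tested (0.11). Most members of the interferon, sensor and class I lists lie to the left of the dashed line, with Cmpk2, Ly6a, Ifngr2, Tlr3 and Mr1 among those to its right, and most microglia markers lie to its right; genes with 0 counts in a tissue are drawn at their fitted value.

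Genes of DNA sensing and of the enzymes that clear nucleic acid were also lower in cerebellum. All 9 tested members of 16 were higher in liver, beside 34% of all genes tested, and 5 were called under library totals. In every liver 7 passed the filter and in every cerebellum 4, so some entered the test through the tissue where they were high. The 4 that passed in every library of both tissues were enzymes, the RNase H2 subunits Rnaseh2a, Rnaseh2b and Rnaseh2c and the cGAMP hydrolase Enpp1, and none was a sensor. These 4 were higher in liver, beside 42.5% of all genes that passed in this way. Ifi204, a nuclear DNA sensor, had 16.8, 22.1 and 32.8 CPM in liver and 8 counts over the cerebella (-6.54, SE 0.54). Tmem173, which encodes STING, had 3.75, 10.4 and 19.6 CPM in liver and 1.3, 2.56 and 4.68 CPM in cerebellum, with overlap (-1.84, SE 0.42; -0.87 and not called under library totals). Mb21d1, the gene of cGAS, had 6 counts in liver and 25 in cerebellum and was not tested.

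Class I antigen presentation was lower in cerebellum from the chains to the loading machinery. Of 21 class I chain genes, B2m included, 15 were tested and 13 were higher in liver, beside 34% of all genes tested. Their median was -4.02 (12 in liver and 1 in cerebellum under library totals). All 7 that passed the filter in every library were higher in liver, beside 42.5% of all genes that passed in this way. The summed level ran from 10148 to 17150 CPM in liver and from 432 to 702 CPM in cerebellum. Class I genes are near-identical in part, so the division of reads among them is uncertain.

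B2m, the light chain that all class I molecules need, had 1949, 2503 and 4211 CPM in liver and 113, 155 and 225 CPM in cerebellum. The highest liver was animal 13 and the lowest was still more than every cerebellum; the difference was -4.02 (SE 0.23, adjusted p = 7.98e-12). H2-K1, a classical heavy chain, had 1412, 2097 and 2982 CPM and 24.5, 31 and 49.4 CPM (-6.08, SE 0.24, adjusted p = 6.93e-14). The other classical heavy chain, H2-D1, had 790, 1638 and 2425 CPM in liver, and a median of 249 and a highest of 313 CPM in cerebellum (-2.78, SE 0.23, adjusted p = 1.72e-09).

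The pair of classical chains was therefore unequally reduced. Per kilobase, H2-K1 stood at 0.943, 1.11 and 1.57 of H2-D1 in liver and at 0.0772, 0.12 and 0.156 in cerebellum. The log2 ratio differed by -3.35 (SD 0.36 over cerebella and 0.23 over livers), in the same direction in 6 of 6 animals (exact permutation test, p = 0.000583, the smallest that 7 against 7 libraries can give; adjusted p = 0.000777). H2-D1 was thus the more abundant classical chain in every cerebellum, and the livers held the chains at similar levels.

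Nonclassical chains were also lower in cerebellum. H2-Q10, a secreted chain made by the liver, had 2633, 5446 and 6165 CPM in liver; 6 cerebella had 0 counts, and the cerebellum of animal 4 had 19 counts (-13.32, SE 0.76; not called by DESeq2, at -3.91 with an adjusted p of 0.141). That cerebellum also had the highest mean log2(CPM + 1) of hepatocyte markers, 1.42 against 0.47 to 0.81 in the other cerebella, and their part in its H2-Q10 count was not tested. H2-T23, the ligand Qa-1 of natural killer cell receptors, differed by -5.51 (SE 0.30), and Cd1d1, which presents lipids, by -9.15 (SE 0.54) from 188 to 818 CPM in liver.

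H2-Q7 had 53.4 to 253 CPM in liver and 9 counts over the cerebella (-8.88, SE 0.55). Fcgrt, the receptor that recycles antibody and albumin, kept 44.5, 66.9 and 75.1 CPM in cerebellum against 315, 382 and 493 CPM in liver (-2.76, SE 0.17). Mr1, which presents vitamin metabolites, was not called (0.29, adjusted p = 0.59; 1.26 and called under library totals).

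Peptide loading followed the chains. Of 16 genes 15 were tested and 13 were higher in liver, beside 34% of all genes tested. Their median was -3.07 (12, with 3 higher in cerebellum, under library totals). Of the 9 that passed the filter in every library 8 were higher in liver, beside 42.5% of all genes that passed in this way. Tap1, the peptide transporter, had 15.4, 27.4 and 198 CPM in liver and 0, 2.76 and 5.27 CPM in cerebellum (-4.32, SE 0.64, and -3.67 without animal 12). Tapbp, or tapasin, differed by -3.15 (SE 0.35) and Erap1, which trims peptides, by -3.45 (SE 0.29). Nlrc5, the activator of class I genes, had 201 counts over the livers and 2 over the cerebella and did not pass the filter.

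The immunoproteasome subunits replace constitutive ones and change which peptides are cut. Psmb8 had 30.4, 50 and 282 CPM in liver and 0.307, 1.87 and 5.27 CPM in cerebellum (-5.25, SE 0.60), and Psmb9 had 20.3, 40.3 and 324 CPM and 0, 1.4 and 3.76 CPM (-5.75, SE 0.79). The highest liver of each was animal 12, without which Psmb8 was at -4.80 and Psmb9 at -5.03. Psmb10 had 60.9, 116 and 353 CPM and 15.3, 29.3 and 31.6 CPM (-2.47, SE 0.33).

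The constitutive counterparts differed far less: Psmb5 by -0.81, Psmb6 by -1.22 and Psmb7 by -0.49, with a median of -0.76 over 14 genes of the proteasome core. Of these 14, all past the filter in every library, 13 were higher in liver (0 under library totals, with 6 higher in cerebellum). Over all genes that passed in this way, 42.5% were higher in liver. Under library totals Psmb5 was at 0.19 and Psmb6 at -0.22, neither called, and Psmb7 at 0.51, so the direction of these genes rests on the scale; the ratios within a library do not. Per kilobase, Psmb8 was at 0.0739, 0.111 and 0.554 of Psmb5 in liver and at 0.00155, 0.00684 and 0.0199 in cerebellum.

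Psmb9 was at 0.0242, 0.032 and 0.302 of Psmb6 in liver and at 0.000134, 0.00358 and 0.00864 in cerebellum, and Psmb10 at 1.38, 3.03 and 6.22 of Psmb7 in liver and at 0.478, 0.813 and 1.06 in cerebellum. None of the 3 ratios overlapped between tissues, and each was lower in the cerebellum of 6 of 6 animals (exact permutation test, adjusted p = 0.000777 each). The replacement subunits Psmb8 and Psmb9 were thus a smaller part of the constitutive level in cerebellum than in liver, where their medians were 0.111 and 0.032. The lowest Psmb9 ratios were those of the cerebella of animals 4 and 13. These had 0 counts of Psmb9, so their ratios rest on the 0.5 added to each count.

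**Figure D4:**
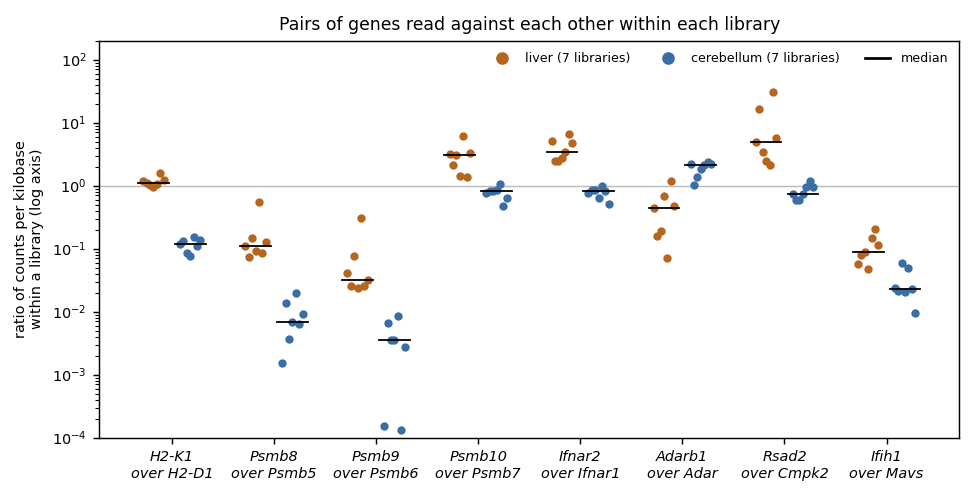
Ratio of 2 genes within each library, as counts plus 0.5 per kilobase of exon on a log axis, for 7 livers in brown and 7 cerebella in blue, with a bar at the median. The H2-K1 to H2-D1 ratio centres on 1.11 in liver and 0.12 in cerebellum, and the Adarb1 to Adar ratio is the one that is higher in cerebellum.

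Class II genes, carried by professional antigen-presenting cells, were higher in liver in 6 of 7 tested members of 13 (5 under library totals). The share over all genes tested was 34%. Only 2 members passed the filter in every library of both tissues, and these 2 were higher in liver. Cd74, the invariant chain, had 18.2, 41.6 and 142 CPM in liver and 3.98, 7.23 and 18.6 CPM in cerebellum, which overlapped by a narrow margin (-2.63, SE 0.44). H2-Ab1 had 4.86 to 105 CPM and 0.326 to 14.3 CPM (-2.87, SE 0.59). Ifi30, a thiol reductase of antigen processing, differed by -4.21 (SE 0.32).

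Marker genes of immune cells also differed between the tissues, which does not tell cell number from RNA per cell. The summed level of 16 macrophage markers ran from 619 to 1653 CPM in liver and from 236 to 405 CPM in cerebellum, with 14 of 15 tested higher in liver. The 10 Kupffer cell markers, of the resident macrophages of liver, summed to 835 to 1359 CPM in liver and 9.13 to 21.7 CPM in cerebellum, where Clec4f and Marco had 0 counts. The 9 microglia markers summed to 91.6 to 220 CPM in cerebellum and 48 to 93.4 CPM in liver, and of the 9, 7 were higher in cerebellum and 1 in liver. Gpr34 was at 0 in every liver, and Sall1, also expressed outside microglia, was the 1 higher in liver (-3.57). Of 9 tested pan-endothelial markers 8 were higher in liver. All genes tested gave 34% higher in liver and 39.1% higher in cerebellum. The part of cell types in the interferon and class I differences was not tested.

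Cell death genes were split between the tissues. Of 9 tested cell death genes 6 were higher in liver and 2 in cerebellum (3 and 2 of the 5 that passed the filter in every library of both tissues). All genes tested gave 34% and 39.1%, and those past the filter in every library gave 42.5% and 24.9%. Casp8, which restrains necroptosis, had 25.5, 61.2 and 72.2 CPM in liver and 1.46, 4.45 and 8.53 CPM in cerebellum (-3.53, SE 0.32), and Gsdmd, the pore former of pyroptosis, differed by -5.25 (SE 0.51). Gsdme (1.09, adjusted p = 0.00388) and Cyld (0.83, adjusted p = 0.000538) were the members higher in cerebellum. The chemokine Cxcl10 had 6.07, 9.15 and 34.5 CPM in liver and 17 counts over the cerebella (-4.71, SE 0.69).

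The same tissue difference was measured in p150-negative mice, 8 cerebella and 7 livers, in a fit over 29 libraries. Of 14063 genes, 376 (2.67%) were called for a difference of the tissue contrast between genotypes in edgeR's quasi-likelihood test (196 with the animal as a block), of which 184 had a more positive cerebellum-to-liver difference without p150 (1.31%) and 192 a more negative one (1.37%). Among interferon-stimulated genes 9 of 64 were called more positive and 0 more negative, among RNA sensors 5 of 9 and 0, and among class I chains 4 of 16 and 0. The median difference of the RNA sensors was -3.74 with p150 and -1.24 without, so their gap between tissues was narrower without p150. For interferon-stimulated genes the medians were -2.79 and -1.74, and for class I chains -3.63 and -3.30, a small change. Class II genes (-2.40 and -3.68) and receptor and JAK genes (-0.58 and -1.02) went the other way, with 0 members called in either list.

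Ifi27l2a, an interferon-stimulated gene, was an example of a narrower gap. Its cerebellar level was 4.90 below liver on the log2 scale with p150 (28.2 to 103 CPM in liver, 0.994 to 5.13 CPM in cerebellum). The gap without p150 was smaller by 4.86 (SE 0.76, adjusted p = 0.000161 in the same quasi-likelihood test). The gap was smaller by 2.79 for Ifih1 (adjusted p = 0.0103), by 2.65 for Ddx58 (adjusted p = 0.0111), by 1.92 for H2-K1 (adjusted p = 0.0043) and by 1.64 for B2m (adjusted p = 0.0109).

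For Mavs the difference between genotypes was -0.12 (SE 0.48, adjusted p = 0.996), for Irf1 0.20 (SE 0.59, adjusted p = 0.969) and for H2-D1 0.19 (SE 0.30, adjusted p = 0.871), none of them called. Adarb1 (-0.01, SE 0.46) was not called either.

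**Figure D5:**
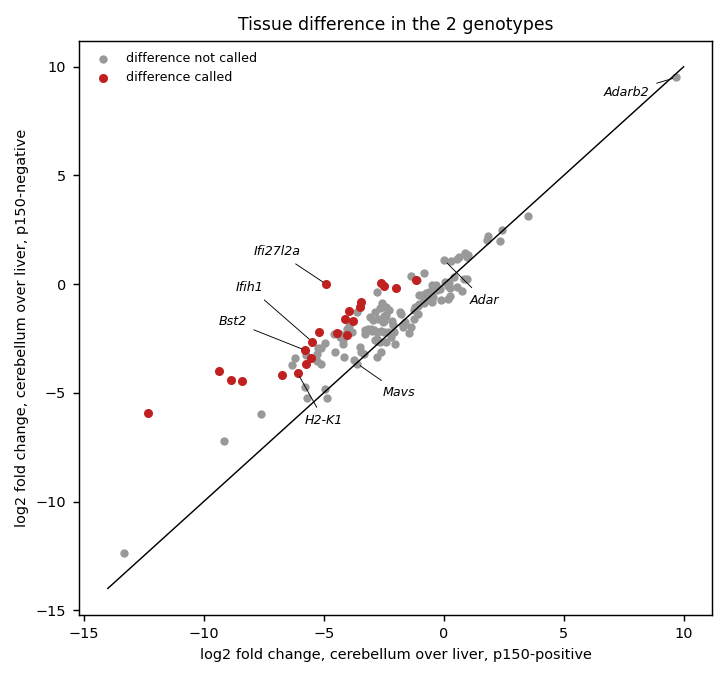
Log2 fold change of cerebellum over liver in p150-positive animals (x, 14 libraries) and in p150-negative animals (y) for 154 tested members of 9 lists, with the line of equality and the 23 genes whose difference between genotypes was called in red. The red points lie above the line; Mavs lies near it, and Adarb2, with 0 counts in p150-positive livers, is drawn at its fitted value.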

How the data were processed

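The authors deposited read counts per gene that were not normalized, with 1 column for each library, from total RNA made into Nextera XT libraries per the labels' protocols. Per the submitters' processing notes, STAR 2.4.2a, HTSeq 0.4.1, Picard 1.134, FastQC 0.11.3 and SAMtools 1.2 were used with GRCm38 (mm10); the strand setting and annotation are not given in the sources used here. All 46 columns matched a sample. Of 53471 entries, 6 identifiers were listed 2 times, with the same counts, of which 1 copy was kept; 3433 without a symbol held 0.267% of counts and stayed in the library sizes. Exon lengths came from GENCODE M21, which holds 99.8% of identifiers.

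Tissue was tested with edgeR 4.0.16 in R 4.3.3 (TMM, quasi-likelihood, filterByExpr by tissue at its count minimum of 10 and total minimum of 15, which asked for 3.12 CPM in 7 libraries). The test was checked on simulated data in which few genes changed, by equal folds up and down. That setting could not check the normalization of a contrast in which most genes were called. SE comes from the quasi-likelihood F statistic. Replicates are separate animals, and same-numbered libraries are the same animal: their deviations from the group means correlated at 0.133, 0.113, 0.0969, 0.0753, -7.16e-05 and -0.0116. A fit that blocked on the animal was run beside it. Further alternatives were RLE, upper-quartile, library-total and housekeeping scaling, DESeq2 1.42.0, voom in limma 3.58.1, other filters, the identifier part as a block, column 20 put back and each library left out. Leaving out animal 12 or 13, the ratios, the scores and the promoters were chosen after seeing the data.

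The interaction of tissue and genotype was fitted over 29 libraries without column 20 and without the liver of p150-negative animal 2 (column 4), which did not pass the tissue check of earlier work. In the 14 p150-positive libraries, at 1682418 to 6237043 counts each, genes near 1 CPM rest on a few reads. The fit over 29 libraries also held shallower p150-negative libraries. Among them were the liver of animal 16 (532311 counts) and the cerebellum of animal 11 (944811 counts). Members and gene lists were chosen with earlier results of these data known. Genes named are up to 5 per direction of a list by adjusted p, genes fixed by name, and other list members; some that met the rule are not reported here.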

Additional observations from a re-analysis of the deposited data

Results flagged for a closer look

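In groups of 7 libraries, the highest or lowest library was marked where its gap to the next took more of the group's range than Dixon's critical value at 95%. This met 41 of 188 groups looked at. The critical value gives about 1 in 20 by chance for normally distributed values. Most groups here are unlogged CPM, some from a few reads, so that rate need not hold. The groups also share libraries and are not independent. The liver of animal 12 accounted for 22 of them and the cerebellum of animal 12 for 8.

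In the liver of animal 12 the marked levels, in CPM, were those of GTPases (Iigp1 5713, Igtp 936, Irgm1 799, Gbp2 149) and of antigen processing (Tapbp 493, Psmb10 353, Psmb9 324, Psmb8 282, Erap1 268, Tap1 198). The same liver was marked for Irf1 at 151, Isg15 at 140, Usp18 at 133, Irf9 at 127, Zbp1 at 201, Gsdmd at 138, Ddx58 at 81.7, Oasl1 at 62.1, Cmpk2 at 51.2 and Cxcl10 at 34.5 CPM. Its mean log2(CPM + 1) was marked at 7.85 for the GTPases and 7.93 for peptide loading. The cerebellum of animal 12 was marked for H2-K1 at 49.4, H2-Ab1 at 14.3, Igtp at 12.5, Irf1 at 11.8, Zbp1 at 4.01, Cd1d1 at 3.01 and Ifih1 at 2.51 CPM, and at 2.83 for the mean of the GTPases. What set this animal apart was not tested.

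Other marked libraries were the liver of animal 13 (B2m 4211, H2-Q10 2633 and Gsdme 40.7 CPM), the liver of animal 15 (Irf3 118 CPM and Mbl2 2748 CPM), the cerebellum of animal 4 (H2-Q10 2.91 and Dhx58 5.67 CPM, hepatocyte mean 1.42), and the cerebella of animals 6 (Usp18 8.35 CPM), 13 (Psmb5 47.2 CPM, the lowest) and 15 (H2-Q7 1.17 CPM).

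The difference between cerebellum and liver was itself different between genotypes, by the interaction test, for 20 of the genes given in the report, and in all 20 it was more positive without p150. On the log2 scale these differences were 4.86 for Ifi27l2a, 4.42 for H2-Q7, 4.10 for Ifi204, 3.89 for Iigp1, 3.37 for Usp18, 2.95 for Igtp, 2.79 for Ifih1, 2.68 for Bst2, 2.65 for Ddx58, 2.61 for Irf9, 2.51 for Lgals9 and 2.46 for Irgm1. They were 2.06 for H2-T23, 2.06 for Zc3hav1, 2.02 for Ifitm3, 1.92 for H2-K1, 1.73 for Eif2ak2, 1.64 for B2m and 1.28 for Stat2. Apol9b, at 0 counts in every p150-positive cerebellum, had a fitted 6.31, which depends on the prior count. Of the 20, 18 were called with the animal as a block, where Stat2 and Zc3hav1 lost the call, and 17 without animal 12, where Stat2, Zc3hav1 and Igtp lost the call. Without animal 13, and under library totals, 17 were called and Eif2ak2, Stat2 and Zc3hav1 were not; with RLE factors Eif2ak2 alone was not.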

How the results depend on the processing

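Genes called higher in cerebellum numbered 4900, and 7836 with library totals or 7684 with no filter on low counts, where 28804 genes were tested; at a log2 fold change of at least 1 these were 3969, 6544 and 6847. Genes called higher in liver numbered 4269, and 2286 with library totals; at a log2 fold change of at least 1, 3206 and 1891. The other settings kept these counts within 1.5 times. Leaving out 1 library gave 9112 to 9719 genes in either direction, 4823 to 5451 higher in cerebellum and 4085 to 4321 higher in liver; at a log2 fold change of at least 1, 4009 to 4362 and 3098 to 3332. Under library totals Ifnar1 turned to 0.65, Dicer1 to 0.11, Psmb5 to 0.19, Psmb7 to 0.51, Eif2s1 to 0.65 and Eif2ak4 to 0.88; of 87 named genes tested, 67 kept their call and direction.

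With the animal as a block (the 6 pairs), 4678 genes were higher in cerebellum and 3854 in liver, and among the named genes it changed the call of Cmpk2, Ly6a, Oas2 and Eif2s1 and no other. With this pairing the genes whose tissue difference depended on genotype fell from 376 to 196 (111 more positive and 85 more negative without p150, from 184 and 192). With columns 4 and 20 put back, 320 were more negative. Low cerebellar levels rest on few reads: 31 counts for Ifih1 and 26 for Zbp1 over 7 cerebella.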

Other observations

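Complement genes, which act in innate defence beside interferon, were higher in liver for 25 of 26 tested members of 32, with a median difference of -8.09 (-7.70 with the 4 genes at 0 counts in cerebellum set to their bound). Over all genes tested, 34% were higher in liver. Of the 26, 24 passed the filter on low counts in every liver and 6 in every library of both tissues. Those 6 were all higher in liver, with a median of -2.42, beside 42.5% of all genes that passed in this way. Mbl2 and C9, at 0 counts in every cerebellum, were at least 23293-fold and 5319-fold higher in liver.

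The kinases of eIF2 slow translation under stress. The list of 7 genes also holds their target Eif2s1 and the phosphatase subunits that undo them. In it 0 genes were higher in cerebellum and 3 in liver, beside 39.1% and 34% of all genes tested. The 3 were Eif2ak2, Ppp1r15b (-1.68, adjusted p = 5.86e-07) and Eif2s1 (-0.34, adjusted p = 0.0465). The call of Eif2s1 was lost with the animal as a block (adjusted p = 0.16), without animal 12 (adjusted p = 0.182), under most other settings and in 13 of the 14 fits that left out 1 library (adjusted p up to 0.222), and it turned to 0.65 under library totals. Not called were Eif2ak1 at 0.36 (adjusted p = 0.268), Eif2ak3 at 0.29 (adjusted p = 0.335) and Eif2ak4 at -0.11 (adjusted p = 0.758); under library totals 5 were called higher in cerebellum and 2 in liver.

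Of the 16 genes with the largest fold changes by the naming rule, 13 had 0 counts in the other tissue, 8 of 8 higher in cerebellum and 5 of 8 higher in liver. Tat, a tyrosine-degrading enzyme, had 53661 counts over the livers and 0 over the cerebella, at least 46428-fold higher. Sh3gl2, which encodes endophilin A1 of synaptic vesicles, had 22420 counts over the cerebella and 0 over the livers, at least 2879-fold higher.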
